A study of Mus musculus with 30 samples.

Results

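Gene expression was compared between B16F10 tumors of hosts with 1 copy of the ARE-del allele (HET) and of wild type mice (WT), all of which had received anti-PD1 together with an agonist antibody to CD40 (called the combination). The comparison takes 7 of the 30 libraries of the series, 4 HET and 3 WT, chosen by the genotype and treatment in their labels, and it tests every gene with enough reads. The HET hosts carry the genotype label ARE-del +/-. The WT hosts carry the label ARE-del +/+ beside a title that says WT, and are read here as wild type. All hosts were female C57BL/6 mice. Their age is not given in the labels. Cultured cells of B16F10, a transplantable mouse melanoma line, were injected subcutaneously in the flank. From day 7 the antibodies followed 2 times a week, at 0.25 mg. The melanoma cells were grown in culture beforehand, which leaves ARE-del to the cells of the host. Labels do not say whether replicates were separate animals. The p-values therefore measure the spread between these samples, which may be in part technical.

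Interferon-γ (IFN-γ), the product of Ifng, is made mainly by T cells and natural killer (NK) cells. It binds a receptor built from Ifngr1 and Ifngr2, which signals through JAK kinases. IRF1, a factor that this signal induces, helps to switch on genes for antigen presentation, chemokines and cell-autonomous defense. An AU-rich element near the 3′ end of the Ifng mRNA normally shortens the life of that mRNA, and ARE-del removes it. PD-1 is a checkpoint receptor of T cells. CD40 is a receptor through which antigen-presenting cells are activated, so the antibodies act on different cells.

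Depth and gene detection differed somewhat between the genotypes, and their part in the results was not tested. The libraries held 27.4 M to 36.0 M reads in HET tumors and 21.1 M to 27.6 M reads in WT tumors. Genes of the table with no read numbered 195 to 496 in HET tumors and 576 to 1041 in WT tumors, and mitochondrially encoded genes took 0.897% to 2.37% of the HET reads and 1.77% to 2.08% of the WT reads. Melanocyte genes marked the samples as labelled: Dct, an enzyme of pigment synthesis, had 9150, 11200, 8056 and 9883 CPM (reads of the gene, scaled to a library of equal size) in HET tumors and 10540, 9447 and 8905 CPM in WT tumors. The sample descriptions carry a prefix from L5 to L8 whose meaning is not stated. All 4 HET tumors are L8 and all 3 WT tumors are L6, so this number and the genotype cannot be told apart within the comparison.

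Markers of skin, muscle and fat differed between the same libraries. Of the 24 keratinocyte and skin barrier genes, 24 had a higher mean in HET tumors, and their summed level ran from 19.7 to 623 CPM in HET tumors and from 13.5 to 20.7 CPM in WT tumors. Krt14, a keratin of basal epidermis, had 175, 72.1, 29.0 and 0.338 CPM in HET tumors, against 0.0466, 0 and 0.0703 CPM in WT tumors. Krt5, its partner keratin, had 83.6, 42.0, 25.6 and 0.270 CPM in HET tumors, against 0.0932, 0 and 0 CPM in WT tumors. HET tumors 1 to 3 thus held keratinocyte RNA that HET tumor 4 and the WT tumors nearly lacked. The summed level of the 21 skeletal muscle genes tested ran from 108 to 458 CPM in HET tumors and from 17.2 to 73.9 CPM in WT tumors. Myh4, a myosin of fast muscle fibers, had 7.59, 9.67, 32.4 and 33.6 CPM in HET tumors, against 0, 3.12 and 0.387 CPM in WT tumors. The 12 adipocyte genes tested summed to 358 to 709 CPM in HET tumors and 315 to 380 CPM in WT tumors. Adipoq, the hormone adiponectin, had 0.985, 0.138, 1.31 and 10.03 CPM in HET tumors and 0, 0 and 0.141 CPM in WT tumors. The part of this tissue in the results below was not tested directly. Values from fits with the mean log2 levels of these lists as covariates (tissue scores) are given beside many of the gene groups and in full in the closing section. Since these are bulk samples, more cells of a type and more RNA per cell cannot be told apart.

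The promoters of Irf1, B2m and H2-Aa, genes whose values follow, are shown with matches to sequences known from interferon-induced or MHC genes. GAS elements (searched as TTCNNNGAA) mediate direct induction by IFN-γ, interferon regulatory factors bind ISRE elements (searched as TTTCNNTTTC), and class I and class II MHC promoters are known for a CCAAT box, often in the inverted form ATTGG. Each sequence is the 250 bases before the annotated start from RefSeq on GRCm38.p6, the mm10 assembly, written 5′ to 3′ on the gene's strand with the matches in capitals.
Irf1 (chr11:53769764-53770013, plus strand): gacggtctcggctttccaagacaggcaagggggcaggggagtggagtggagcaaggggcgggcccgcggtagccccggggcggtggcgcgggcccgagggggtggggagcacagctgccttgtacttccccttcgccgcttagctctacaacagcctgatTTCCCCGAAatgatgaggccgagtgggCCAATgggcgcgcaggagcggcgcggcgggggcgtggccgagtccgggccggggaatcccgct
B2m (chr2:122147437-122147686, plus strand): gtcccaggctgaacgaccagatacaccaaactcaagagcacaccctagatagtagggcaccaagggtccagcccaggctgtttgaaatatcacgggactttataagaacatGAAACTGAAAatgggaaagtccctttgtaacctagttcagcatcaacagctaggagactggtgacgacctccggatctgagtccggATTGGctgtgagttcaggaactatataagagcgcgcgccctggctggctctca
H2-Aa (chr17:34287824-34288073, minus strand): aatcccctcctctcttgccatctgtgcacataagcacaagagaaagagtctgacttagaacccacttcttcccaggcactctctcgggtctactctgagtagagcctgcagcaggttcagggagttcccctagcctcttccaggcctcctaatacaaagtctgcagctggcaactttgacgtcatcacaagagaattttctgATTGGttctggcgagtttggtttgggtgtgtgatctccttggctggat
The Irf1 window stands before one of 2 starts annotated for this gene, and the window before the other held no match. Counted back from the start, the window shown for Irf1 held the GAS match TTCCCCGAA at −90 to −82 and a CCAAT match at −63 to −59. The B2m window held GAAACTGAAA, an ISRE match on the other strand, at −139 to −130 and ATTGG at −53 to −49. The H2-Aa window held ATTGG at −48 to −44 and no GAS or ISRE match. No 2 of these matches overlapped. Read on both strands, a GAS match was found in 7.02% of all 32851 promoters of that length, an ISRE match in 2.98% and a CCAAT match in 33.8%. Among the 10314 genes tested that have a promoter in the RefSeq table, the shares were 7.27%, 3.2% and 40.2%. Among IFN-γ response genes with a promoter in the RefSeq table, 8 of 20 held a GAS match and 11 of 20 an ISRE match. Among type I interferon response genes, 3 of 20 held a GAS match and 9 of 20 an ISRE match. A CCAAT match was held by 7 of 20 genes in each of these interferon lists. Among class I MHC genes 13 of 14 held a CCAAT match, 1 of 14 a GAS match and 3 of 14 an ISRE match, and among class II MHC genes 5 of 6, 1 of 6 and 1 of 6. Among immunoproteasome genes 1 of 6 held a CCAAT match, 1 of 6 a GAS match and 0 of 6 an ISRE match. A match is a string of letters and not a measured binding site.

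Across all genes no difference between HET and WT tumors passed the test. Of 15002 genes tested with limma, 0 (0%) had an adjusted p under 0.05, and the smallest adjusted p was 0.368. At an unadjusted p under 0.05, 619 genes (4.13%) were higher and 215 genes (1.43%) lower in HET tumors, 834 in all where about 750 would be expected by chance. Limma's voom on the recovered reads also called 0 genes and put 778 at an unadjusted p under 0.05. With a weight for each library limma called 6 genes, Casp1, H2-DMb1, Lair1 and Ubd higher and Srgap3 and Prkcz lower in HET tumors, with adjusted p between 0.0267 and 0.0456. In the fit that holds the L number 79 genes had an unadjusted p under 0.05, and 0 were called. The step from L6 to L8 in that fit rests on few libraries. L6 enters it through HET tumor 1 under IgG alone. L8 enters it through HET tumor 4 under IgG and HET tumor 4 under anti-CD40. Values from that fit are therefore a description and not a correction for the L number. The differences were lopsided in size, with 934 genes above 1 and 165 below −1 on the log2 scale. The median over all genes was near 0, with 49.9% of genes above 0. Scaling the libraries to equal size tends to center the genes, so this cannot show whether levels shifted in general. In 1014 genes (6.76%) every HET tumor lay above every WT tumor, and in 854 genes (5.69%) every HET tumor lay below. These shares are the background for the counts of each gene group. The first principal component of the 7 libraries held 56.2% of their variance and placed HET tumors 1 to 4 at 70.3, 14.4, 56.5 and −11.0 and the WT tumors at −59.5, −39.6 and −31.1.

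**Figure D1:**
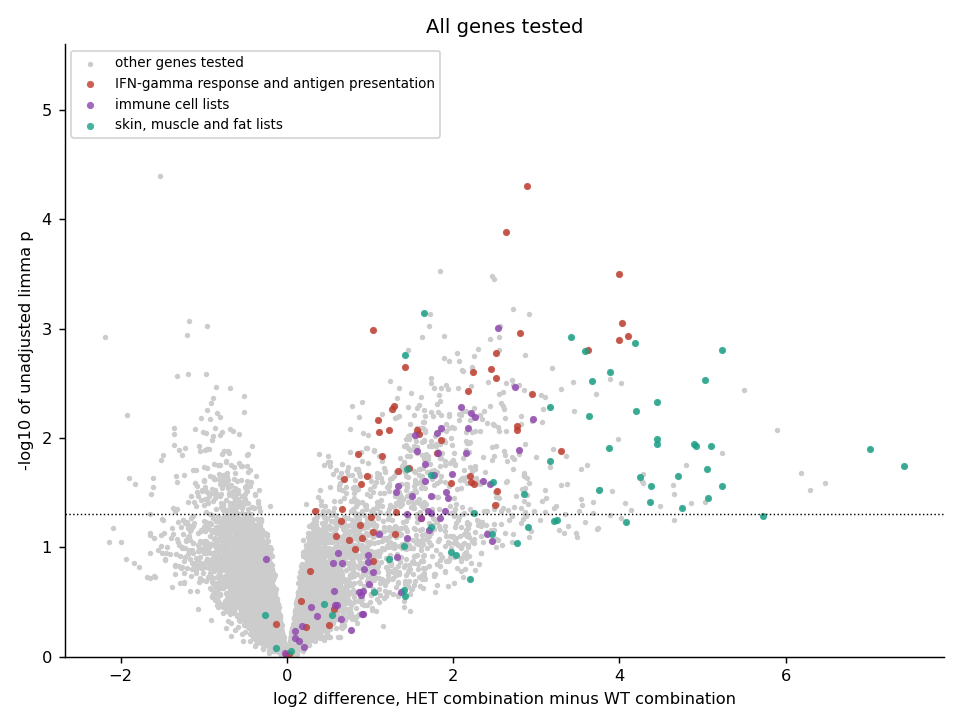
Each point is 1 of the 15002 genes tested, with the log2 difference (HET combination minus WT combination, log2 CPM) on the x axis and −log10 of the unadjusted limma p on the y axis. Colors mark 3 families of gene lists, the dotted line stands at the unadjusted threshold, and the colored points lie mostly right of 0 although 0 genes passed the adjusted threshold.

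Ifng was scarce in every tumor. The gene lies at chr10:118441046-118445892 (mm10, plus strand) and had 0.191, 0.0276, 0.354 and 0.101 CPM in HET tumors, which is 20 reads over 4 of 4 libraries, and 0, 0 and 0.0703 CPM in WT tumors, which is 2 reads in 1 of 3 libraries. The groups overlapped, since HET tumor 2 lay below WT tumor 3. Ifng did not reach the level needed for the fit over all genes. The log2 difference was 1.15 on the deposited scale, with an exact two-sided permutation p of 0.114 over the 7 libraries, where 0.029 is the smallest the design allows. Over the summed reads of each group the HET to WT ratio was 6.03, with an exact 95% interval of 1.46 to 53.2 that covers counting error only.

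The receptor chains showed almost the same level in both genotypes. Ifngr1 had 24.4, 22.4, 27.0 and 23.9 CPM in HET tumors and 22.1, 19.7 and 25.4 CPM in WT tumors, a log2 difference of 0.13 ± 0.17 (limma SE). Ifngr2 had 88.7, 69.3, 66.2 and 62.0 CPM in HET tumors and 69.7, 63.4 and 65.1 CPM in WT tumors, a difference of 0.10 ± 0.18. The groups overlapped for each chain.

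Of 28 genes listed for IFN-γ, its receptor and signalling, 21 were tested and 16 had a difference above 0, with a median of 0.11. In 6 the groups did not overlap, all with HET higher, and Irf1, Irf8 and Il18bp were among them, without passing the adjusted threshold. Irf1 had 67.3, 35.7, 106 and 44.8 CPM in HET tumors, against 23.8, 25.4 and 29.7 CPM in WT tumors, a log2 difference of 1.15 ± 0.44 (adjusted p = 0.719 by limma). Every HET tumor lay above every WT tumor, and HET tumors 1 and 3 stood highest. Irf8, an interferon regulatory factor of monocytes and dendritic cells, had 13.4, 8.95, 34.7 and 9.93 CPM in HET tumors, against 3.03, 4.38 and 4.46 CPM in WT tumors. Il18bp, a secreted inhibitor of IL-18, had 15.6, 6.82, 25.8 and 8.65 CPM in HET tumors, against 3.26, 4.62 and 4.15 CPM in WT tumors. With keratinocyte, muscle and adipocyte scores as covariates the difference of Irf1 was 0.11 and that of Irf8 0.31. Without the filter on low values, which lets in Ifng and brings the members tested from 21 to 27, the list's median was 0.45.

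**Figure D2:**
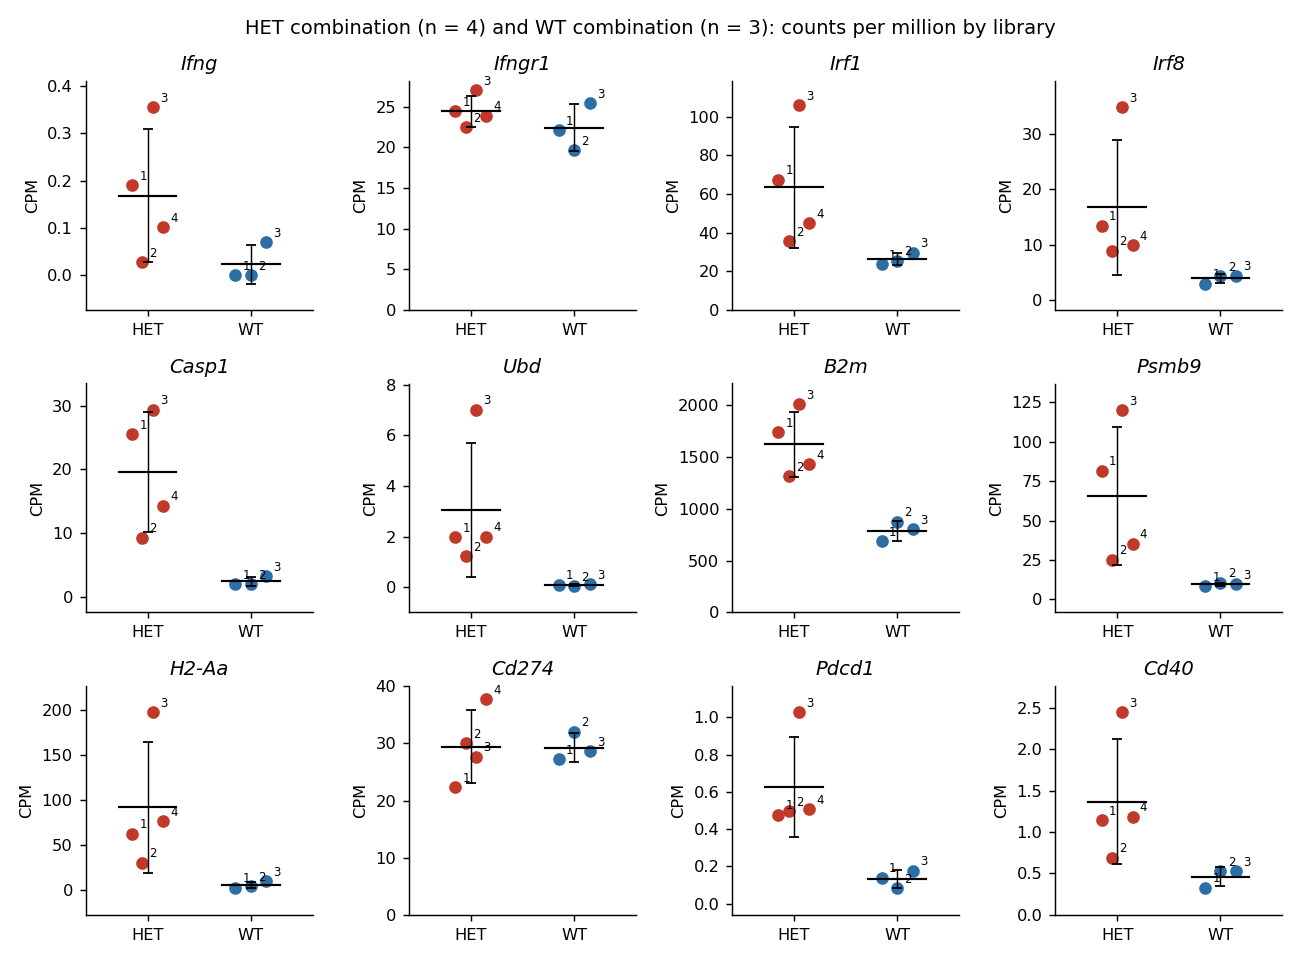
CPM (y axes, linear) of 12 genes in the 4 HET and 3 WT combination tumors, 1 numbered point per library, with the mean as a line and the SD as bars. Ifngr1 and Cd274 overlap between genotypes, while for Irf1, Irf8, Casp1, Ubd, B2m, Psmb9, H2-Aa, Pdcd1 and Cd40 every HET point lies above every WT point.

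IFN-γ response genes stood higher in HET tumors as a group. Of 37 listed genes 33 were tested, and 31 of them had a difference above 0, with a median of 1.32 on the log2 scale. In 23 of the 33 every HET tumor exceeded every WT tumor and in 0 the reverse, and 19 had an unadjusted p under 0.05. Casp1 (chr9:5298517-5307265, plus strand), the protease of inflammasomes that matures IL-1β and IL-18, had the lowest p among genes higher in HET tumors. It had 25.5, 9.25, 29.4 and 14.3 CPM in HET tumors, against 1.96, 1.99 and 3.23 CPM in WT tumors, a log2 difference of 2.89 ± 0.60 with an unadjusted p of 4.91e-05 and an adjusted p of 0.368 by limma. Ubd, which encodes the ubiquitin-like modifier FAT10, had 1.97, 1.22, 7.01 and 1.99 CPM in HET tumors, against 0.0932, 0.0405 and 0.105 CPM in WT tumors, a difference of 3.99 ± 0.97 (adjusted p = 0.661). Irgm1, an interferon-inducible GTPase of cell-autonomous defense, had 152, 118, 242 and 151 CPM in HET tumors, against 87.9, 91.7 and 91.9 CPM in WT tumors. The spread among HET tumors was wide for each of these genes, and HET tumor 2 was the lowest.

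A few genes of the group were picked for their roles after their values had been seen. Cxcl9, a chemokine that draws T cells through CXCR3, had 13.5, 21.3, 53.2 and 13.0 CPM in HET tumors, against 3.63, 4.05 and 3.34 CPM in WT tumors, a log2 difference of 2.50 ± 1.17. When the fit held the L number, whose term rests on a few libraries of other treatments, the difference of Cxcl9 was −0.09. Cxcl10, a chemokine for the same receptor, had 49.0, 18.8, 61.4 and 31.0 CPM in HET tumors and 16.5, 12.2 and 27.5 CPM in WT tumors, so its groups overlapped. Of the 8 guanylate-binding protein genes tested, 7 did not overlap between genotypes, each with HET higher. How reads shared by such near-identical genes were divided is not stated.

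Some known IFN-γ targets had similar levels in both genotypes. Cd274 (chr19:29367455-29388095, plus strand), the gene of PD-L1 and a textbook IFN-γ target, had 22.4, 30.02, 27.7 and 37.8 CPM in HET tumors and 27.2, 32.0 and 28.6 CPM in WT tumors, a log2 difference of −0.01 ± 0.38. Wars, a tRNA synthetase that interferon induces, had 125, 130, 162 and 150 CPM in HET tumors and 134, 116 and 125 CPM in WT tumors, a difference of 0.17 ± 0.17. The groups overlapped for both genes.

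Genes of the type I interferon response, which share part of their control with the IFN-γ response, had smaller differences. Of 30 listed genes 28 were tested, and 24 had a difference above 0 with a median of 0.26. In 5 the HET tumors lay above the WT tumors and in 1 below, and 3 had an unadjusted p under 0.05 with HET higher. Zbp1, a sensor of nucleic acids, had 15.6, 9.20, 39.9 and 14.1 CPM in HET tumors, against 2.94, 4.01 and 4.64 CPM in WT tumors. Bst2, which tethers virus particles, had 417, 188, 345 and 143 CPM in HET tumors and 177, 147 and 187 CPM in WT tumors, so the groups overlapped. Ifi27l2a had 7.53, 5.22, 25.3 and 13.8 CPM in HET tumors and 2.56, 1.30 and 9.67 CPM in WT tumors. The list's median was −0.34 in the fit that holds the L number and −0.0033 in the fit that holds keratinocyte and muscle scores.

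Class I MHC genes stood higher in HET tumors throughout. All 16 members tested had a difference above 0, with a median of 1.10, and in 12 of them the groups did not overlap. B2m, the light chain shared by class I molecules whose promoter is shown above, had 1737, 1315, 2010 and 1430 CPM in HET tumors, against 686.5, 875.3 and 801 CPM in WT tumors. The lowest HET tumor exceeded the highest WT tumor, and the log2 difference was 1.03 ± 0.28 (adjusted p = 0.661 by limma). H2-D1, a class I heavy chain, had 1447, 686.4, 1494 and 708.1 CPM in HET tumors, against 270.2, 500.6 and 404.7 CPM in WT tumors, a difference of 1.41 ± 0.42. Reads of class I genes are alike enough that their division between family members is uncertain. Tap1, a subunit of the transporter that carries peptides to class I molecules, had 111, 51.3, 159 and 55.2 CPM in HET tumors, against 23.8, 29.7 and 32.2 CPM in WT tumors. Nlrc5, the transactivator of class I genes, had 55.2, 52.7, 124 and 82.9 CPM in HET tumors, against 23.9, 28.5 and 28.1 CPM in WT tumors. Tap1 and Nlrc5 were picked for their roles after their values had been seen. The chaperones of the loading complex differed less. Calr had 1137, 1025, 1330 and 1308 CPM in HET tumors and 955.4, 876.3 and 1146 CPM in WT tumors, a difference of 0.28 ± 0.19. Pdia3 had 990.5, 787.2, 1017 and 1023 CPM in HET tumors and 736.9, 674.6 and 850.6 CPM in WT tumors, a difference of 0.34 ± 0.16.

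The immunoproteasome, which cuts proteins into peptides for class I molecules, followed the same order. In 6 of 6 genes the groups did not overlap, each with an unadjusted p under 0.05, and the median difference was 1.15. Psmb8, a catalytic subunit, had 145.9, 45.0, 216 and 38.2 CPM in HET tumors, against 11.7, 18.0 and 15.7 CPM in WT tumors. Psmb9, another catalytic subunit, had 81.7, 25.1, 120.2 and 35.2 CPM in HET tumors, against 8.48, 10.53 and 9.49 CPM in WT tumors, a difference of 2.51 ± 0.72 (adjusted p = 0.661 by limma). Psmb10, the remaining catalytic subunit, had 93.2, 44.6, 137 and 37.0 CPM in HET tumors, against 25.1, 28.8 and 26.4 CPM in WT tumors. HET tumors 1 and 3 were well above HET tumors 2 and 4 for each catalytic subunit. Psme1 and Psme2, the PA28 activator subunits, showed smaller differences of 0.69 ± 0.29 and 0.89 ± 0.38.

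Class II MHC genes had the largest median of the immune lists, 2.94. Of 11 listed genes 9 were tested, 9 had a difference above 0 and an unadjusted p under 0.05, and in 8 the groups did not overlap. H2-Aa, the class II alpha chain whose promoter is shown above, had 62.4, 30.3, 197 and 76.5 CPM in HET tumors, against 2.38, 3.81 and 9.31 CPM in WT tumors, a log2 difference of 4.03 ± 1.08 (adjusted p = 0.661 by limma). Cd74, the invariant chain that occupies the groove of new class II molecules, had 145, 71.8, 404 and 158 CPM in HET tumors, against 5.64, 8.95 and 19.6 CPM in WT tumors. Ctss, the protease that removes the invariant chain, had 166, 69.7, 218 and 72.0 CPM in HET tumors, against 13.1, 29.98 and 23.8 CPM in WT tumors. Each of these genes was lowest in HET tumor 2 and highest in HET tumor 3. H2-DMb1, a chain of the peptide exchange factor H2-DM, had 42.1, 32.9, 69.3 and 26.6 CPM in HET tumors, against 9.04, 4.94 and 5.73 CPM in WT tumors, a difference of 2.64 ± 0.59 (adjusted p = 0.629). H2-DMa, the other chain, had 10.9, 5.58, 34.0 and 8.14 CPM in HET tumors, against 1.30, 1.62 and 1.83 CPM in WT tumors. Ciita, the transactivator of class II genes, picked for that role after its values had been seen, had 1.46, 1.22, 7.58 and 3.41 CPM in HET tumors, against 0.280, 0.0810 and 0.668 CPM in WT tumors.

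The medians of these interferon and presentation groups were smaller in fits that hold the tissue scores. With keratinocyte and muscle scores as covariates the median difference was 0.66 for IFN-γ response, 0.46 for class I, 0.27 for immunoproteasome and 1.62 for class II genes. With the adipocyte score added, a choice made after seeing the data, the medians were 0.45, 0.47, 0.20 and 0.43 in the same order. With the L number they were 0.53, 0.45, 0.56 and 1.79. HET tumor 4 nearly lacked keratinocyte RNA, with a mean log2 level of −2.25 over the keratinocyte list against −2.59 to −2.41 in WT tumors, and it was the HET tumor with the highest adipocyte score. Its muscle genes summed to 225 CPM, with a mean log2 level of 2.77 against −1.40 to 1.05 in WT tumors. Its mean log2 level over the IFN-γ response list was 4.25, against 2.72 to 2.99 in WT tumors, and 4.50 over the class II list, against 0.96 to 2.22 in WT tumors.

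**Figure D3:**
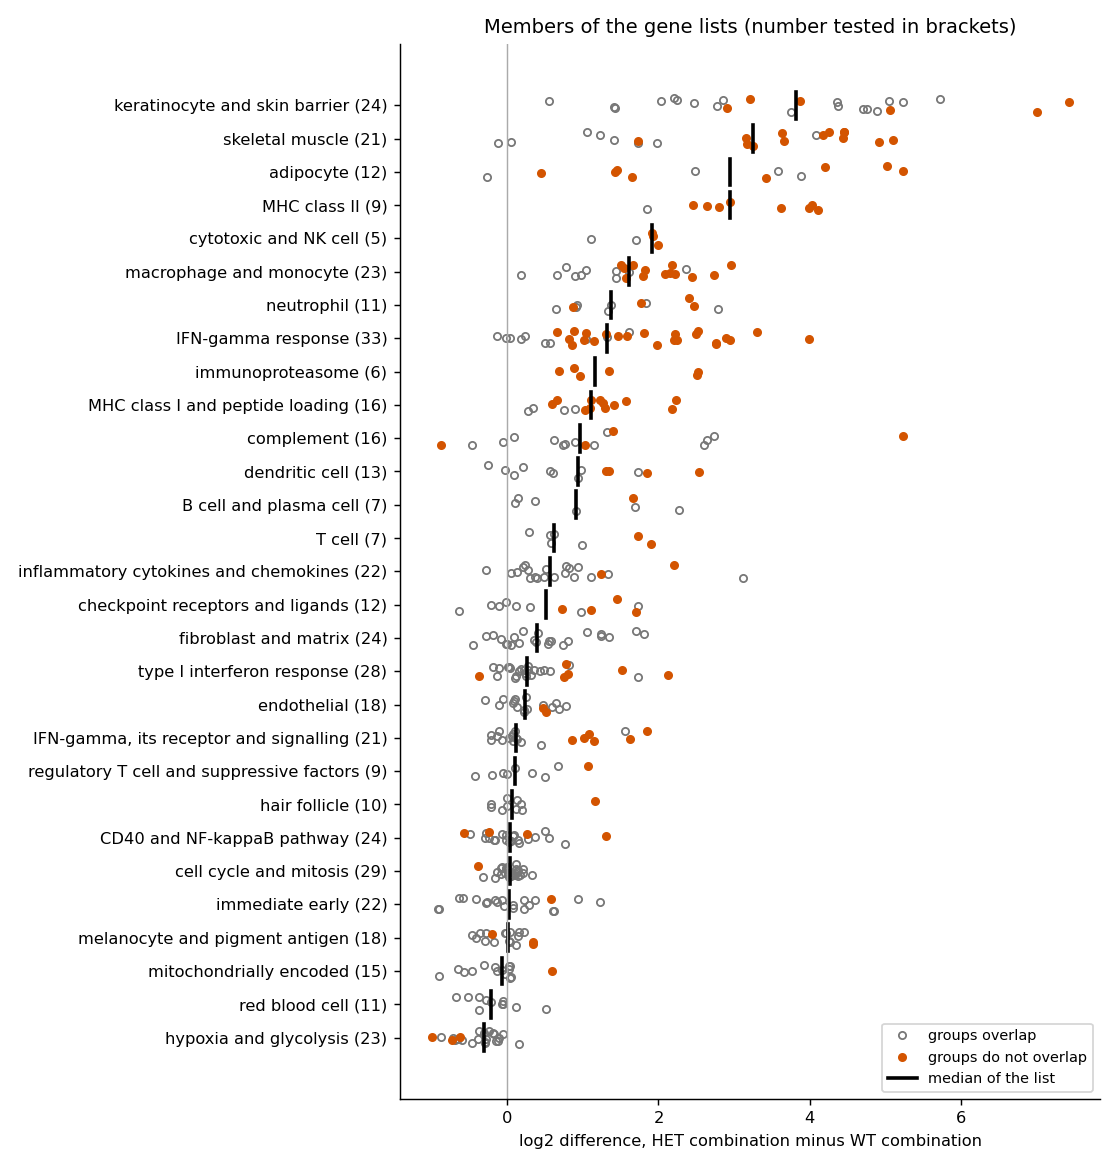
Each row is a gene list with the number of members tested, each point the log2 difference (HET minus WT combination, log2 CPM) of 1 member, filled where the groups do not overlap, and the bar the list's median. MHC class II lies at a median of 2.94 and IFN-gamma response at 1.32, skin, muscle and fat lie further right at 3.81, 3.25 and 2.95, and hypoxia and glycolysis lies left of 0 at −0.31.

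T cell genes were scarce in all tumors. Of 25 listed genes 7 passed the filter. A scarce gene can pass because some group is high, so their counts are a description only. The same holds for the cytotoxic, checkpoint, regulatory T cell, B cell, dendritic cell and neutrophil lists below, of which only a part was tested. Cd3g, a chain of the T cell receptor complex, had 0.477, 0.359, 0.956 and 0.540 CPM in HET tumors, against 0.0466, 0.162 and 0.141 CPM in WT tumors. Trbc2, a constant region of the receptor's beta chain, had 1.05, 0.414, 1.27 and 0.405 CPM in HET tumors, against 0.0466, 0.203 and 0.176 CPM in WT tumors. Both were higher in every HET tumor than in any WT tumor. Cd8a, a coreceptor of cytotoxic T cells, had 0.508, 0.387, 1.77 and 0.642 CPM in HET tumors and 0.233, 0.284 and 0.457 CPM in WT tumors, a log2 difference of 0.98 ± 0.77 with overlapping groups. Lck, a kinase of T cell receptor signalling, had 8.01, 5.36, 8.74 and 7.94 CPM in HET tumors and 3.96, 4.25 and 6.57 CPM in WT tumors.

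Cytotoxic and NK cell genes were as scarce, with 5 of 22 listed genes tested. The list's median was 1.91, and 0.98 without the filter on low values. Gzmb, the protease granzyme B, had 0.254, 0.470, 1.17 and 0.405 CPM in HET tumors, against 0.0466, 0.0810 and 0.0703 CPM in WT tumors, a log2 difference of 1.99 ± 0.82 (adjusted p = 0.773 by limma). Nkg7, a protein of cytotoxic granules, had 0.858, 0.608, 1.31 and 0.676 CPM in HET tumors, against 0.140, 0.0810 and 0.316 CPM in WT tumors. Klrk1, the activating receptor NKG2D, had 0.572, 0.249, 1.24 and 0.608 CPM in HET tumors, against 0, 0.122 and 0.246 CPM in WT tumors. Every HET tumor lay above every WT tumor for these genes, with 8 to 37 reads per HET library and 0 to 9 reads per WT library. With keratinocyte, muscle and adipocyte scores as covariates the differences of Cd3g, Trbc2, Lck, Cd8a, Nkg7 and Klrk1 were below 0, between −0.99 and −0.16, and the medians were −0.26 for T cell and −0.16 for cytotoxic genes.

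The targets of the antibodies were scarce as well. Pdcd1, the gene of PD-1, had 0.477, 0.497, 1.03 and 0.507 CPM in HET tumors, against 0.140, 0.0810 and 0.176 CPM in WT tumors. Its groups did not overlap, the log2 difference was 1.70 ± 0.90, and the exact permutation p over the 7 libraries was 0.0286, the smallest possible, as 1 of 9 genes tested this way. The p over all genes did not pass (adjusted p = 0.823 by limma). Cd40 had 1.14, 0.691, 2.44 and 1.18 CPM in HET tumors, against 0.326, 0.527 and 0.527 CPM in WT tumors, a difference of 1.31 ± 0.58 (exact permutation p = 0.0571). With keratinocyte, muscle and adipocyte scores as covariates the differences were −0.71 for Pdcd1 and −0.38 for Cd40, and Cd40 was at −0.12 with the L number. By the same exact test p was 0.0571 for Irf1, 0.114 for Cd8a, 0.314 for Ifngr1, 0.657 for Ifngr2 and 0.971 for Cd274.

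Checkpoint receptors and ligands differed unevenly. Of 19 listed genes 12 were tested, 8 had a difference above 0 with a median of 0.51, and in 4 the groups did not overlap. Havcr2, the receptor TIM-3, had 4.42, 2.46, 5.38 and 2.74 CPM in HET tumors, against 1.44, 1.54 and 1.86 CPM in WT tumors. Of 14 genes for regulatory T cells and suppressive factors 9 were tested, 5 had a difference above 0 and the median was 0.10. Entpd1, an ectoenzyme that breaks down extracellular ATP, had 10.48, 6.30, 16.96 and 9.32 CPM in HET tumors, against 3.82, 5.63 and 5.06 CPM in WT tumors, and was the member whose groups did not overlap. B cell genes were tested in 7 of 17 cases. Ighm, the heavy chain of IgM, had 2.89, 1.24, 4.64 and 6.45 CPM in HET tumors and 0.466, 0.365 and 1.27 CPM in WT tumors, so that HET tumor 2 lay just below WT tumor 3. Cd22, an inhibitory receptor of B cells, had 2.10, 0.746, 2.41 and 1.22 CPM in HET tumors, against 0.373, 0.405 and 0.457 CPM in WT tumors. The B cell median was 0.91 over all tumors and 0.24 without HET tumor 4. It was −0.08 with the 3 tissue scores as covariates, where the checkpoint median was −0.31.

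Macrophage and monocyte genes stood higher in HET tumors. All 23 members tested had a difference above 0, with a median of 1.61, and in 13 the groups did not overlap. Csf1r, the receptor of macrophage growth factor, had 23.6, 14, 47.5 and 24.9 CPM in HET tumors, against 4.01, 6.24 and 13.9 CPM in WT tumors. Lyz2, lysozyme, had 157, 123, 238 and 149.9 CPM in HET tumors, against 36.7, 42.7 and 85.7 CPM in WT tumors. C1qb, a chain of complement C1q made by macrophages, had 118, 39.6, 179 and 74.3 CPM in HET tumors, against 11.8, 19.3 and 32.9 CPM in WT tumors. WT tumor 3 was the highest of its group in each of them. Tyrobp, the adaptor DAP12, had 34.6, 12.2, 44.6 and 17.2 CPM in HET tumors, against 4.15, 5.19 and 7.94 CPM in WT tumors, a log2 difference of 2.09 ± 0.69 (adjusted p = 0.661 by limma). Ly6c2, a marker of inflammatory monocytes, had 0.858, 0.967, 4.07 and 0.811 CPM in HET tumors, against 0.0466, 0.0810 and 0.351 CPM in WT tumors. The macrophage median was 0.64 with keratinocyte and muscle scores as covariates and −0.14 with the adipocyte score added, where Csf1r was at −0.31 and C1qb at −0.21. Fabp4 and Lpl, which are in the adipocyte list, are also made by macrophages.

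Myeloid genes outside that list were among the 12 genes higher in HET tumors with the lowest p, taken from genes whose groups do not overlap and whose mean log2 value is at least 1. Fcgr4, an activating Fc receptor, had 12.04, 4.70, 24.4 and 7.70 CPM in HET tumors, against 1.21, 1.82 and 2.04 CPM in WT tumors. Lair1, an inhibitory receptor for collagen, had 5.18, 3.15, 9.13 and 3.55 CPM in HET tumors, against 0.606, 1.22 and 0.703 CPM in WT tumors. Itgax, the integrin CD11c of dendritic cells and some macrophages, had 12.8, 4.09, 14.3 and 3.41 CPM in HET tumors, against 0.513, 2.15 and 1.37 CPM in WT tumors. That their groups do not overlap was fixed by this rule. The log2 differences were 2.56 ± 0.69, 2.46 ± 0.60 and 2.54 ± 0.68. The others of the 12 were Casp1, H2-DMb1, H2-Aa, B2m and H2-DMa, described above, and Fabp4, AW112010, Apol9b and Ralgps2. AW112010, annotated as a long intergenic noncoding RNA, had 9.02, 4.25, 21.1 and 6.79 CPM in HET tumors, against 1.03, 1.34 and 0.914 CPM in WT tumors. Apol9b, of the apolipoprotein L family, had 25.6, 5.00, 19.5 and 6.79 CPM in HET tumors, against 1.35, 1.46 and 2.32 CPM in WT tumors. Ralgps2, an exchange factor for Ral GTPases, was highest in HET tumor 4, with 7.497, 9.39, 15.8 and 26.9 CPM in HET tumors, against 2.61, 4.25 and 4.25 CPM in WT tumors.

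Dendritic cell genes were tested in 13 of 21 cases, of which 11 had a difference above 0, with a median of 0.93, and 4 did not overlap. Neutrophil genes were tested in 11 of 16 cases, all above 0 with a median of 1.38, and 4 did not overlap. Scarce members can pass the filter through a group where they are high, so the counts of both lists are a description only. S100a9, a subunit of calprotectin, had 9.43, 7.46, 5.70 and 1.55 CPM in HET tumors, against 0.978, 0.405 and 1.44 CPM in WT tumors. It ran in the order of the keratinocyte genes among HET tumors, which Clec4d and Lcn2 did not. S100a9 is also made by stressed keratinocytes, and which cells its reads came from was not tested. Clec4d, a lectin of myeloid cells, had 6.70, 3.78, 8.46 and 3.34 CPM in HET tumors, against 0.699, 1.30 and 3.34 CPM in WT tumors, with HET tumor 4 and WT tumor 3 nearly equal. Lcn2, lipocalin 2, had 1.43, 1.02, 3.22 and 17.4 CPM in HET tumors and 0.140, 0.284 and 1.09 CPM in WT tumors. The neutrophil median was 2.18 without WT tumor 3. In the fit with the 3 tissue scores the median was 0.42 for neutrophil and −0.33 for dendritic cell genes.

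Genes of the CD40 and NF-κB pathway showed no shift as a group. Of 24 tested members, 13 had a difference above 0, with a median of 0.04, and 2 did not overlap with HET higher and 2 with HET lower. Tnfaip3, the feedback inhibitor A20, had 7.91, 9.31, 8.14 and 8.88 CPM in HET tumors, against 11.8, 13.0 and 13.5 CPM in WT tumors, a log2 difference of −0.57 ± 0.30. Ikbkb, a kinase that activates NF-κB, had 73.6, 92.4, 85.2 and 89.5 CPM in HET tumors, against 104, 102 and 94.6 CPM in WT tumors. For both genes every HET tumor lay below every WT tumor.

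Cytokines and chemokines stood higher more often than lower, in 21 of 22 tested, with a median of 0.57. In 2 of the 22 the groups did not overlap, a share near the 6.76% of all genes. With keratinocyte, muscle and adipocyte scores as covariates the median was −0.23 with 5 of 22 above 0, Ccl8 was at −1.40 and Cxcl16 at −0.04. Ccl8, a chemokine for monocytes, had 24.0, 13.0, 92.3 and 34.2 CPM in HET tumors and 0.606, 4.29 and 15.9 CPM in WT tumors. Cxcl16, a chemokine for T cells, had 21.4, 7.49, 24.7 and 7.97 CPM in HET tumors, against 1.17, 4.29 and 4.50 CPM in WT tumors. Complement genes were above 0 in 13 of 16 tested, with a median of 0.96, and 3 did not overlap with HET higher and 1 with HET lower. Cfd, complement factor D and a product of fat cells, had 16.3, 2.07, 22.5 and 80.7 CPM in HET tumors, against 0, 1.26 and 0.633 CPM in WT tumors. C4b, complement C4, had 163, 114, 161 and 226 CPM in HET tumors, against 54.5, 111 and 81.2 CPM in WT tumors. HET tumor 4, with the highest adipocyte score, was the highest for Cfd, which is also in the adipocyte list, and for C4b. The complement median was 0.10 with the 3 tissue scores as covariates.

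Melanocyte and cell cycle genes differed little in the median. The 18 melanocyte and pigment genes were split evenly, 9 above and 9 below 0, with a median of 0.00, and 3 did not overlap. Of the 29 cell cycle genes 18 were above 0, with a median of 0.03. Top2a, a topoisomerase of dividing cells, had 418, 455, 569 and 571 CPM in HET tumors and 539, 419 and 578 CPM in WT tumors. Fibroblast and matrix genes had a median of 0.39, which ran from 0.022 to 0.92 when 1 library was left out and was −0.74 with the 3 tissue scores, with 0 of 24 not overlapping, and endothelial genes a median of 0.24 with 2 of 18.

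Hypoxia and glycolysis genes stood lower in HET tumors. Of 23 tested, 22 had a difference below 0, with a median of −0.31, 3 did not overlap and 4 had an unadjusted p under 0.05, all of these with HET lower. Vegfa, the growth factor for blood vessels, had 146, 219.5, 113 and 170 CPM in HET tumors, against 252, 376 and 331 CPM in WT tumors, a log2 difference of −0.999 ± 0.40 (adjusted p = 0.768 by limma). Aldoc, a glycolytic aldolase, had 108, 145, 59.1 and 77.3 CPM in HET tumors and 144, 179.6 and 126 CPM in WT tumors. Gapdh had 4927, 6154, 4950.0 and 4227 CPM in HET tumors and 5151, 7570 and 6072 CPM in WT tumors. The groups overlapped for Aldoc and Gapdh and not for Vegfa. With keratinocyte, muscle and adipocyte scores as covariates the list's median was 0.04, that of Vegfa 0.02 and that of Gapdh 0.09.

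The 12 genes lower in HET tumors with the lowest p belonged to none of the gene lists. Srgap3 (chr6:112717971-112947266, minus strand), a GTPase-activating protein of the Slit-Robo pathway, had the smallest p of all genes. It had 0.667, 2.15, 1.03 and 1.69 CPM in HET tumors, against 3.77, 3.81 and 3.76 CPM in WT tumors, a log2 difference of −1.52 ± 0.31 with an unadjusted p of 4.13e-05 and an adjusted p of 0.368 by limma. The WT tumors were nearly equal, and all HET tumors lay below them. Prkcz, an atypical protein kinase C, had 4.77, 4.53, 3.43 and 5.67 CPM in HET tumors, against 7.41, 13.5 and 11.2 CPM in WT tumors. Slc2a3, the glucose transporter GLUT3, had 17.2, 22.1, 16.7 and 23.4 CPM in HET tumors, against 28.2, 37.2 and 41.7 CPM in WT tumors. For these genes too the genotypes did not overlap, which the rule for naming them required. Fads6, of the fatty acid desaturase family, had 9.50, 11.8, 8.602 and 16.5 CPM in HET tumors, against 23.8, 19.5 and 22.7 CPM in WT tumors. Cers1, a ceramide synthase, had 5.46, 9.64, 8.14 and 9.52 CPM in HET tumors, against 11.7, 14.3 and 12.9 CPM in WT tumors. Ano1, a calcium-activated chloride channel, had 2.64, 4.14, 3.47 and 4.15 CPM in HET tumors, against 7.55, 7.74 and 5.83 CPM in WT tumors. Their differences ranged from −0.69 for Cers1 to −1.18 for Prkcz, all with an adjusted p of 0.661. The other genes of this kind were Mex3d, Crmp1, Zfp395, D10Bwg1379e, the pseudogene Gm4575 and the antisense transcript C630016N16Rik, with differences between −1.92 and −0.52. Strand is not stated for the counting, so reads of C630016N16Rik and of a gene on the other strand cannot be told apart.

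Among skin, muscle and fat genes themselves, the list medians were the highest of the 29 lists, with those of adipocyte and class II genes nearly equal. Keratinocyte genes had a median difference of 3.81, with 6 of 24 not overlapping and 14 with an unadjusted p under 0.05. Trp63, the master factor of squamous epithelium, had 2.86, 1.80, 1.45 and 0.304 CPM in HET tumors, against 0, 0.0405 and 0 CPM in WT tumors. Lgals7, galectin 7 of squamous epithelium, had 52.5, 16.7, 9.03 and 5.78 CPM in HET tumors, against 0.419, 2.23 and 3.37 CPM in WT tumors. Krt15, a keratin of basal cells and hair follicle stem cells, had 8.45, 6.02, 7.61 and 0 CPM in HET tumors, with no read in any WT tumor. HET tumor 4 was the lowest of the HET tumors for each of these epithelial genes. Muscle genes had a median of 3.25 and did not overlap in 13 of 21. Acta1, skeletal muscle actin, had 36.6, 17.4, 111.5 and 36.4 CPM in HET tumors, against 0.419, 10.2 and 1.76 CPM in WT tumors. Atp2a1, the calcium pump of fast muscle, had 9.69, 8.78, 27.4 and 24.9 CPM in HET tumors, against 0.745, 2.67 and 0.738 CPM in WT tumors. Pvalb, parvalbumin, had 1.02, 1.49, 4.60 and 6.52 CPM in HET tumors, against 0, 0.0810 and 0.176 CPM in WT tumors. In the fit that holds the L number the muscle median was −1.41, with Acta1 at −2.24 and Myh4 at −1.41. Under IgG the mean log2 level of the muscle list was −1.29 in HET tumor 1 (L6) and 3.93 in HET tumor 4 (L8). Adipocyte genes had a median of 2.95 and did not overlap in 8 of 12. Fabp4, the fatty acid binding protein of fat cells and macrophages, had 75.0, 61.4, 80.3 and 130.7 CPM in HET tumors, against 22.5, 33.8 and 24.7 CPM in WT tumors. Plin1, which coats the lipid droplet, had 0.635, 0.166, 1.95 and 5.94 CPM in HET tumors, against 0, 0.0405 and 0.0703 CPM in WT tumors. Lpl, lipoprotein lipase, had 18.0, 11.7, 47.9 and 32.6 CPM in HET tumors, against 6.66, 9.52 and 10.51 CPM in WT tumors.

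**Figure D4:**
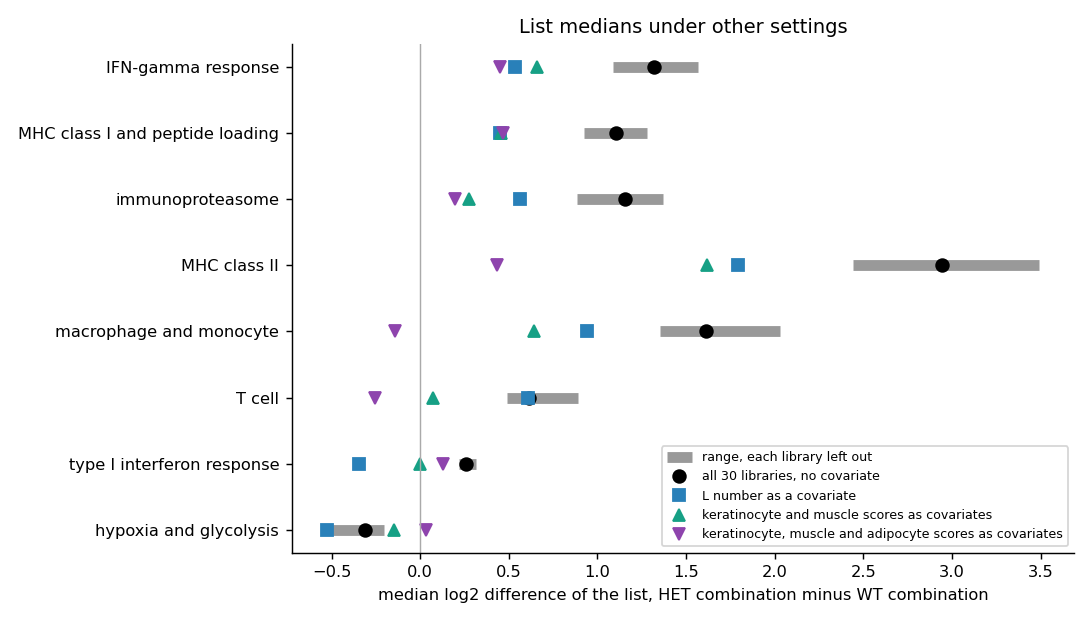
Median log2 difference (HET minus WT combination, x axis) of 8 gene lists in the fit without covariates (black), over fits that leave out each of the 7 libraries (grey bar), with the L number (blue squares), with keratinocyte and muscle scores (green triangles) and with the adipocyte score added (purple triangles). The class II median runs from 0.43 to 3.49 and the macrophage median from −0.14 to 2.03, and the widest moves come from the covariates.

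The genotype difference was then set beside that under the other treatments, which no sample of the comparison shares. Under control IgG (4 HET, 5 WT) the median difference of IFN-γ response genes was 0.02, under anti-PD1 alone (3 HET, 4 WT) −0.28, under anti-CD40 alone (4 HET, 3 WT) 1.73, and under the combination 1.32. Class II genes had medians of 0.27, −0.82, 3.43 and 2.94 in the same order, and class I genes 0.18, −0.02, 1.31 and 1.10. Macrophage genes had medians of 0.33, −0.56, 1.49 and 1.61. Muscle genes had medians of 0.53, 0.53, 3.65 and 3.25, and adipocyte genes −0.15, −0.95, 1.205 and 2.95. Keratinocyte genes had −0.74, 0.16, −0.67 and 3.81, of which the value under anti-CD40 is below 0 and that under the combination above 0.

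Whether the genotype difference under the combination departed from that under another treatment was tested for every gene by an interaction term in limma. Against IgG 0 of 15002 genes were called (smallest adjusted p = 0.990) and 525 had an unadjusted p under 0.05. Against anti-PD1 0 were called (smallest adjusted p = 0.754) and 952 had an unadjusted p under 0.05. Against anti-CD40 0 were called (smallest adjusted p = 0.999) and 106 had an unadjusted p under 0.05. Limma's voom on the recovered reads gave 321, 870 and 82 in the same order, with 0 called. In the fit that holds the L number the counts against IgG, anti-PD1 and anti-CD40 were 84, 26 and 115. The prefix differs between the genotypes under the other treatments too, as IgG tumors run from L6 to L8 in HET and are all L5 in WT.

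Casp1, H2-Aa and Srgap3 are among the genes named for their low p under the combination. A larger difference there than under the other treatments is in part built into that choice, so their values are a description. Casp1 averaged 3.24 ± 2.49 CPM in HET and 2.07 ± 1.57 CPM in WT tumors under IgG (SD, n = 4 and 5), and 3.16 ± 1.73 CPM in HET and 2.13 ± 1.16 CPM in WT tumors under anti-PD1 (n = 3 and 4). It averaged 16.97 ± 12.4 CPM in HET and 3.30 ± 1.04 CPM in WT tumors under anti-CD40 (n = 4 and 3), and 19.6 ± 9.40 CPM in HET and 2.39 ± 0.73 CPM in WT tumors under the combination (n = 4 and 3). The excess of Casp1 in HET tumors under the combination over that under IgG was 2.21 ± 0.79 on the log2 scale (adjusted p = 0.990 by limma), over that under anti-PD1 2.31 ± 0.84 and over that under anti-CD40 0.78 ± 0.84. For H2-Aa these excesses were 3.26 ± 1.43, 4.91 ± 1.52 and −0.04 ± 1.52. For Srgap3, whose groups lay apart under the combination, they were −1.79 ± 0.41, −1.25 ± 0.44 and −1.19 ± 0.44. Ifng averaged 0.363 ± 0.524 CPM in HET and 0.0160 ± 0.0277 CPM in WT tumors under anti-CD40, and under anti-PD1 it was without a read in 3 HET tumors and averaged 0.0878 ± 0.107 CPM in WT tumors.

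**Figure D5:**
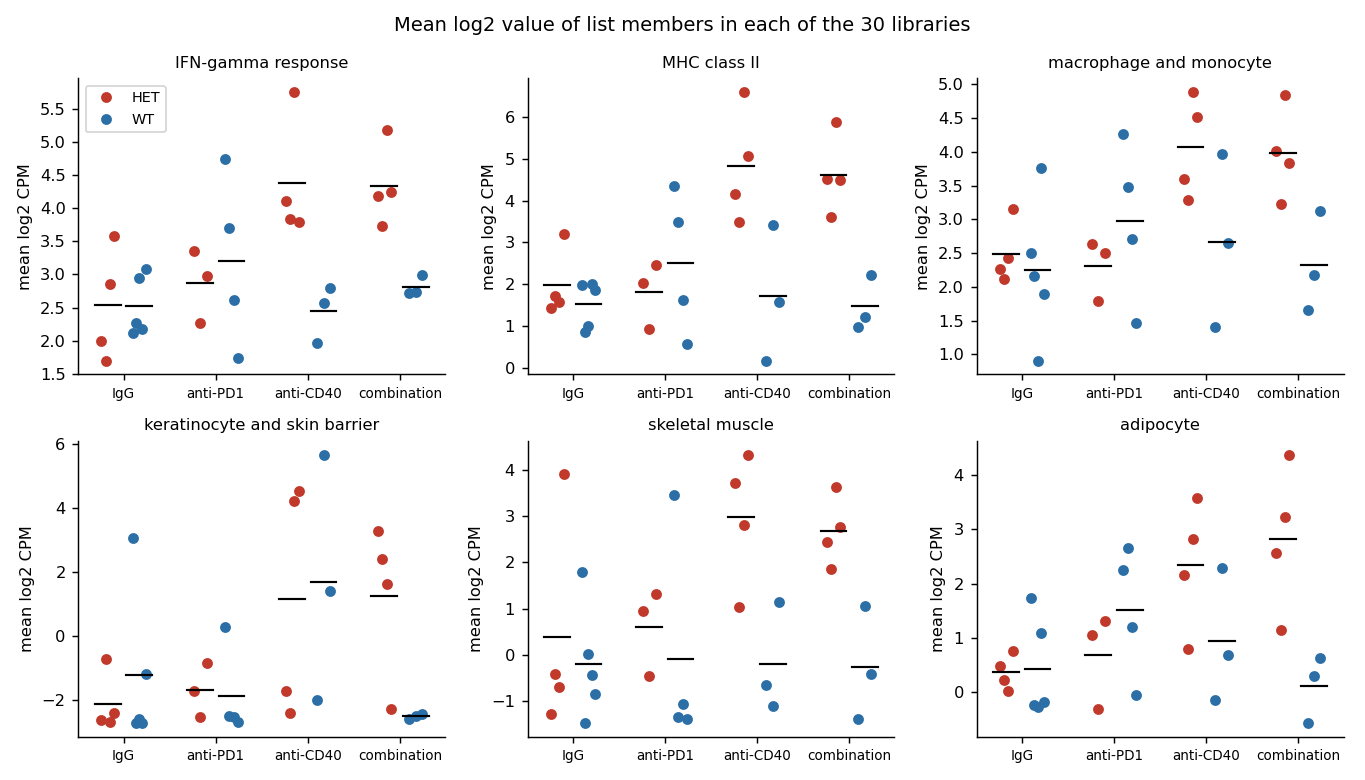
Mean log2 CPM over the tested members of 6 gene lists (y axes) in each of the 30 libraries, by treatment (x axis), with HET in red left of WT in blue and group means as lines. Under anti-CD40 and under the combination the HET means of IFN-gamma response, MHC class II, macrophage, muscle and adipocyte genes stand above the WT means, while the keratinocyte mean is higher in HET tumors under the combination and lower under anti-CD40.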

How the data were processed

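RNA of whole subcutaneous tumors was sequenced from TruSeq libraries, per the labels' protocols. The deposited table gives log2 CPM values (read counts scaled to equal library size, on a log2 scale) of 18975 genes in 30 libraries, made by the authors. Per the submitters' processing notes, STAR, edgeR and the mm10 build were used; versions, strand, annotation release and filters are not given in the sources used here. The values returned to whole reads in 100% of cases (tolerance 0.01), with a prior of about 2 reads, so CPM and reads were recovered from them. GENCODE vM21 held 18837 of the identifiers and gave their coordinates.

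The unit being log2, the test was limma 3.58.1 (moderated statistics with trend, R 4.3.3) on all 30 libraries with 8 group means, which share 1 estimate of the spread. The test covered 15002 genes, those that exceeded a log2 value of 0 in 3 libraries or more, with Benjamini-Hochberg adjustment and a threshold of 0.05. A log2 difference understates the change of low genes because of the prior. An exact two-sided permutation test over 35 arrangements served single genes, with 9 core genes chosen for it, of which 1 is not reported here. Depth was 21.1 M to 36.0 M reads per library in the 7 combination libraries, where 1 read was worth 0.0276 to 0.0466 CPM. Over all 30 libraries it was 17.6 M to 36.0 M reads, and 1 read was worth 0.0276 to 0.0596 CPM. Intervals cover counting error only.

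The 29 gene lists and the comparison were chosen with earlier results of these data known. Genes named are 9 core genes, the 12 lowest p in each direction among genes whose groups do not overlap and whose mean log2 value is at least 1, and, of each list, members among the 3 highest in level and the 2 lowest in p. The exceptions are Tap1, Nlrc5, Ciita, Cxcl9 and Cxcl10, chosen after their values were seen, and cell type markers. Alternatives were other filters, a prior of 0.5 reads, voom, recentring, library weights, covariates, a replicate block and each library left out. Scripts were tested on simulated data. Figures were drawn with matplotlib 3.10.9.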

Additional observations from a re-analysis of the deposited data

Results flagged for a closer look

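Of 128 groups of values checked for a single sample far from the rest, 5 stood out in HET tumors, and chance flags about 1 in 20 such groups. HET tumor 3 was far above the other HET tumors in Pdcd1 (0.15 log2 CPM) and in Ly6c2 (2.05 log2 CPM). HET tumor 2 was far below them in Pdia3 (9.62 log2 CPM), and HET tumor 4 was far below them in Crmp1 (4.32 log2 CPM) and in Krt15 (−3.64 log2 CPM, the value of a library with no read).

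In 17 cases the mean log2 level of a gene list was, in every HET tumor of 1 treatment, on one side of the WT mean and, under another treatment, on the opposite side. Each of the 29 lists was checked against IgG, anti-PD1 and anti-CD40, and the number of cases that chance would give was not estimated. These differences were not tested as such. The groups could still overlap. Under anti-PD1 the class II level was 2.03, 0.93 and 2.46 in HET tumors and 4.36, 3.49, 1.61 and 0.56 in WT tumors. WT tumors 1 and 2 of that treatment were also the highest for cytotoxic genes (0.61 and −0.71, against −2.03 and −2.82). They were so for immunoproteasome genes too (5.75 and 4.75, against 4.04 and 3.57). The cases against anti-PD1 share these WT libraries and are not independent of each other. Against anti-PD1, the HET minus WT difference under the combination was further up by 3.85 for class II MHC, 3.55 for adipocyte, 2.79 for neutrophil, 2.64 for cytotoxic and NK cell and 2.32 for macrophage genes. It was further up by 1.87 for complement, 1.82 for T cell, 1.69 for immunoproteasome, 1.69 for cytokine, 1.63 for B cell and 1.61 for dendritic cell genes. The smaller excesses were 1.02 for checkpoint, 0.64 for regulatory T cell and suppressive, 0.63 for IFN-γ signalling and 0.16 for CD40 and NF-κB genes. Hypoxia and glycolysis genes ran the other way, at −0.56. Against IgG, the excess of neutrophil genes was 2.89.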

How the results depend on the processing

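The count of genes with an adjusted p under 0.05 was 0 in the comparison and in the 3 interactions under each alternative, except that library weights called 6 in the comparison and weights fitted by REML, which stopped before converging, called 23. The REML weights, the adipocyte covariate and the fit without HET replicate 2 of the IgG group were added after seeing the data. Genes at an unadjusted p under 0.05 numbered 834. They were 79 with the L number, 204 with keratinocyte and muscle scores, 206 with the adipocyte score added, 3311 with library weights, 3319 with REML weights and 1836 with the 7 combination libraries alone (smallest adjusted p = 0.0957 by limma). Leaving out 1 library gave 410 (without HET tumor 3) to 1130 (without HET tumor 4), with 496 without WT tumor 1. For the interaction with IgG (525) the counts were 84, 1804, 2111, 820 and 321 with the L number, library weights, REML weights, no filter and voom, and 284 to 736 with 1 library left out. For the interaction with anti-PD1 (952) they were 26, 399, 70, 2416 and 2715 with the L number, keratinocyte and muscle scores, the adipocyte score added, library weights and REML weights, and 482 to 1287 with 1 library left out. For the interaction with anti-CD40 (106) they were 180, 840, 53 and 223 with the adipocyte score added, library weights, REML weights and no filter, and 44 to 214 with 1 library left out. The cause of these moves was not tested.

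Whether replicate numbers pair the samples is not known, and the main fit did not pair them. Deviations of same-numbered libraries correlated at −0.098, 0.119 and 0.327, and HET tumor 4 has no partner. Those of libraries with different numbers correlated at −0.458 to 0.323. So few pairs cannot decide the question. With the replicate block 0 genes were called, 687 had an unadjusted p under 0.05, the interaction with anti-PD1 had 577, the hair follicle median was 0.24, and Cd274 (0.038) and Dct (0.016) were above 0.

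A list median counts as moved here if it changed by at least the pooled SD of the list's mean level within the 2 genotypes. With the L number the list medians that moved were 0.53 for IFN-γ response, 0.45 for class I, 1.79 for class II, −0.34 for type I interferon, 0.25 for checkpoint, 0.21 for dendritic, −0.11 for endothelial, 0.60 for hair follicle, −1.41 for muscle, 1.43 for adipocyte, 4.00 for red cell and −0.69 for mitochondrial genes. Lists with a wide spread could change without counting as moved. Where the keratinocyte, muscle or adipocyte score is a covariate, the mean difference of that same list vanishes by construction. The median of such a list in that fit is therefore not a result. With the L number keratinocyte genes were at 2.05, macrophage genes at 0.94 and fibroblast genes at −0.15. With keratinocyte and muscle scores they were 0.66, 0.46, 1.62 and −0.0033 for the first 4 lists, 0.27 for immunoproteasome, 0.071 for T cell, 0.61 for cytotoxic, 0.13 for checkpoint, 0.64 for macrophage, 0.093 for dendritic, 0.20 for melanocyte, 0.056 for keratinocyte, −1.31 for hair follicle, 0.01 for muscle, 1.41 for adipocyte, 1.38 for red cell, 0.39 for mitochondrial and −0.32 for immediate early genes. With the adipocyte score added they were 0.45 for IFN-γ response, 0.47 for class I, 0.20 for immunoproteasome, 0.43 for class II, −0.26 for T cell, −0.16 for cytotoxic, −0.31 for checkpoint, −0.078 for B cell, −0.14 for macrophage, −0.33 for dendritic, 0.42 for neutrophil, −0.23 for cytokine, 0.10 for complement, 0.26 for melanocyte, −0.14 for cell cycle, 0.035 for hypoxia, −0.74 for fibroblast, −0.021 for keratinocyte, −1.12 for hair follicle, −0.0074 for muscle, 0.16 for adipocyte, 1.36 for red cell, 0.66 for mitochondrial and −0.27 for immediate early genes. Without a filter the medians were 0.45 for IFN-γ signalling, 1.08 for T cell and 0.98 for cytotoxic genes. With the stricter filter they were 1.11 for cytotoxic, 0.20 for checkpoint and 1.65 for adipocyte genes, and with a prior of 0.5 reads 2.59 for cytotoxic genes. Leaving out 1 library gave 0.24 to 1.43 for B cell, 1.04 to 2.18 for neutrophil, −0.063 to 0.46 for regulatory T cell, 0.022 to 0.92 for fibroblast, 0.35 to 0.94 for cytokine, 0.59 to 1.41 for dendritic and −0.50 to −0.20 for hypoxia genes.

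Of 95 named genes 65 kept their sign under every alternative that gave them a value, 19 for Gzmb, Plin1 and Adipoq, which the stricter filter drops, and 20 for the others. With the L number the sign turned for Ifngr1 (−0.11), Cd274 (0.19), Cd40 (−0.12), Irgm1 (−0.11), Bst2 (−0.34), Lck (−0.016), Top2a (0.44), Acta1 (−2.24), Atp2a1 (−0.50), Cxcl9 (−0.092) and Myh4 (−1.41). With keratinocyte and muscle scores it turned for Ifngr1 (−0.11), Ifngr2 (−0.0011), Cd274 (0.29), Cd8a (−0.21), Bst2 (−0.13), Dct (0.19), Top2a (0.046), Acta1 (−0.11), Lgals7 (−0.55) and Cxcl10 (−0.11). With the adipocyte score added it turned for Ifngr1 (−0.21), Ifngr2 (−0.10), Cd274 (0.43), Pdcd1 (−0.71), Cd40 (−0.38), Cd8a (−0.99), Ifi27l2a (−0.039), Bst2 (−0.029), Cd3g (−0.26), Trbc2 (−0.74), Lck (−0.20), Nkg7 (−0.16), Klrk1 (−0.41), Entpd1 (−0.46), C1qb (−0.21), Cxcl16 (−0.040), Ccl8 (−1.40), Vegfa (0.020), Gapdh (0.091), Dct (0.34), Lgals7 (−1.26), Trp63 (−0.027), Cxcl10 (−0.59) and Csf1r (−0.31). Leaving out 1 library gave both signs for Ifngr2 (−0.0053 to 0.17), Cd274 (−0.14 to 0.11), Dct (−0.095 to 0.064) and Top2a (−0.16 to 0.069). Acta1, Lgals7 and Trp63 belong to lists whose own scores were covariates, so their turns of sign with those scores are in part built in. Depth limits the scarce lymphocyte genes, where a library holds few reads of each.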

Other observations

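Of 11 red blood cell genes tested 2 had a difference above 0 and 9 below, with a median of −0.22, and in 0 of them did the groups stand apart. The red blood cell median was 4.00 in the fit that holds the L number and 1.38 with keratinocyte and muscle scores as covariates. Under IgG the mean log2 level of the red blood cell list was 5.63 in HET tumor 1 (L6) and 2.18 in HET tumor 4 (L8). Mitochondrially encoded genes were above 0 in 6 of 15, with a median of −0.07, and their summed level ran from 8524 to 23530 CPM in HET tumors and from 17140 to 20750 CPM in WT tumors. Immediate early genes, which respond to handling of tissue, were above 0 in 11 of 22, with a median of 0.02. Hair follicle genes summed to 1.45 to 3.14 CPM in HET tumors and 1.13 to 2.43 CPM in WT tumors, a range far below that of the keratinocyte genes in HET tumors 1 to 3.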
